A study of Mus musculus with 4 samples.

Results

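The CCT chaperonin, also called TRiC, is a cytosolic protein-folding machine of eukaryotic cells. Its subunits are encoded by 8 related genes, Tcp1 (the alpha subunit) and Cct2, Cct3, Cct4, Cct5, Cct6a, Cct7 and Cct8 (beta to theta). They were taken as every non-control spot whose gene name in the array files equals 1 of these symbols. This gave 8 genes of the 36315 gene names on the array, with 8 probes out of 55681, 1 spot for each gene, and updating the names through RefSeq added none. RNA came from 32D-EpoR, a mouse line of early myeloid cells into which the receptor for erythropoietin was introduced. One group was treated with erythropoietin (Epo, the hormone that drives red cell formation) at 10 U/ml and its control received no Epo. Cells of both groups had first been washed and kept in serum-containing medium without the WEHI conditioned medium that maintains the line, so the control is a culture deprived of its growth factor. The duration of Epo treatment, and whether the line is 1 clone, is not stated in the labels. For either group RNA was hybridised to 2 single-colour arrays, from experiments on cells of different passages, and so few arrays limit the precision of every value.

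CCT is built as a pair of stacked rings, and each ring holds every subunit once. A newly made protein is enclosed in the cavity, ATP hydrolysis closes a built-in lid, and the protein folds inside. Actin and tubulin are its best known clients, together with proteins of the WD40 repeat family. The subunits take up ATP unequally. In budding yeast the counterparts of Cct2, Cct4, Cct5 and Cct7 bind it tightly, and those of Tcp1, Cct3, Cct6a and Cct8 bind it weakly. Because the complex needs all its subunits, the level of each transcript was followed separately.

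The level of every subunit rests on a single 60-base probe. Of the 8 probes, 7 could be read in at least 1 frame without a stop codon. The eighth, that of Cct5, lies on chr15:31520643-31520702 of the mouse build mm9 (minus strand) and has no such frame. It contains the letters AATAAA of the polyadenylation signal, and whether they serve as that signal was not tested. The 7 others are printed here in lower case, 5′ to 3′, since each carries the whole measurement of its gene.
Tcp1, chr17:13116096-13116155, plus strand: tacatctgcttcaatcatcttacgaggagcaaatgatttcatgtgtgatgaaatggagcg
Cct2, chr10:116490137-116490196, minus strand: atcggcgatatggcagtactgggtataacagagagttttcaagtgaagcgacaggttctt
Cct3, chr3:88124479-88124538, plus strand: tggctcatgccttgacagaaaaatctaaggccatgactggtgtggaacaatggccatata
Cct4, chr11:22901396-22901455, plus strand: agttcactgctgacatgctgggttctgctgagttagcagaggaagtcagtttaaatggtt
Cct6a, chr5:130300316-130300375, plus strand: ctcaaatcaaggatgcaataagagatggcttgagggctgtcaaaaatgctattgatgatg
Cct7, chr6:85417773-85418099, plus strand: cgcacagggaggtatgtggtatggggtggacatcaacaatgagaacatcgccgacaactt
Cct8, chr16:87485981-87486129, minus strand: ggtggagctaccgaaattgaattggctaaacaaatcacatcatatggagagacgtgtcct
Positions are those of the files, on mm9. The probes of Cct7 and Cct8 span 327 and 149 bases of the genome and so cross a splice junction, whereas the other probes each lie in 1 uninterrupted stretch of 60 bases. The GC content ran from 38.3% for Cct5 to 51.7% for Cct7. The array also carries a probe for Gm5380, which the files describe as similar to Cct7, so how far the Cct7 probe and the Gm5380 probe read each other's transcript is uncertain.

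All 8 transcripts were well above background on all 4 arrays, and their spots were 65.4 to 6079 times brighter than the local background. With Epo every subunit gave a stronger signal, but none passed the test in the analysis of all genes. Signals are given as log2 of the processed intensity, scaled so that the 75th percentile of each array is equal. On this scale the 8 differences (Epo minus no Epo) ran from 0.17 to 0.94 with a median of 0.40, against a median of -0.062 over the 17555 genes tested. All 8 were above 0 in both replicate numbers, as were 38.5% of all genes. For all 8 both arrays with Epo lay above both arrays without it, which held for 30.4% of all genes. With limma and an adjusted p below 0.05, 0 of 8 subunits were called higher and 0 lower, while 13.1% of all genes were called higher and 14.3% lower, 27.4% in either direction. At an unadjusted p below 0.05 limma gave 2 of the 8, Tcp1 and Cct3, and 7502 of the 17555 genes tested, a larger share. In such bulk RNA a change in the share of cells of a kind cannot be told apart from a change of RNA per cell.

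**Figure D1:**
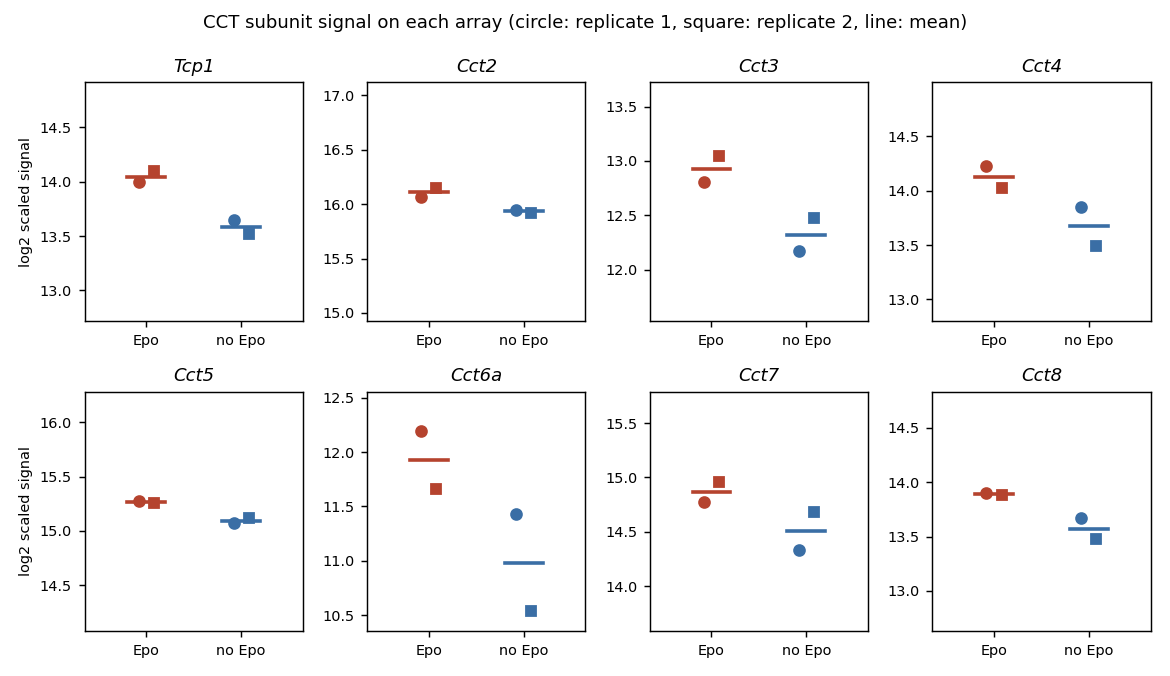
Log2 scaled signal of each CCT subunit on each array, with Epo on the left and without Epo on the right of every panel. Circles are replicate 1, squares replicate 2 and lines the mean of 2 arrays, and all panels span the same height. In every panel both arrays with Epo lie above both without, and Cct6a has the widest scatter within a group.

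Markers of the line and of other cells were measured on the same arrays. Of 9 myeloid progenitor markers 8 were above background on all arrays, and Kit, the stem cell factor receptor, was on none. The summed signal of the 9 was 94073 and 93118 scaled units with Epo and 95204 and 92088 without. Within this sum Csf2rb2 rose by 0.49 and Cebpa fell by 0.74 (limma adjusted p 0.0448 and 0.0267). Epor was above background on all arrays and fell with Epo, with a log2 difference of -1.60 (limma adjusted p 0.0082). Of 6 erythroid markers 3 were above background on all arrays, with sums of 7973 and 8179 with Epo and 11415 and 13075 without, and Alas2 was on none. Klf1 and Hba-a1 differed by -0.096 and -0.19 and did not pass (limma adjusted p 0.776 and 0.341). The lower erythroid sums therefore do not stand for a fall of each marker. Of 7 lymphoid markers only Cd3e and Cd4 were above background on all arrays and the other 5 on none, with sums of 677 and 719 with Epo against 1425 and 1218 without. Cd3e and Cd4 fell by 1.14 and 0.81 (limma adjusted p 0.0171 and 0.0175). Of 4 macrophage markers 3 were above background on all arrays, with sums of 4464 and 4777 with Epo and 3654 and 3569 without. They did not move together, since Adgre1 rose by 1.03 and Csf1r fell by 0.79 (limma adjusted p 0.0089 and 0.0138), and Cd68 differed by 0.078 (adjusted p 0.684). Of 5 stromal markers 0 were above background on all arrays, with sums of 126 and 30.6 with Epo and 59.6 and 80.5 without. The 4 epithelial markers were above background on none, with sums of at most 17.9 with Epo and 32.2 without. The part of the markers that moved in the differences of the subunits was not tested.

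Whether the subunits were called depended on how the spread was estimated, on the filter for dim probes, and on the scaling and background correction. The study made 2 independent experiments, and no label ties the replicate numbers to them. Read that way, with the number as a block in the limma fit, 4 of the 8 were called higher, and every value given with the block holds only under this reading. These were Cct3 (adjusted p 0.0189), Cct6a (0.0220), Cct4 (0.0362) and Tcp1 (0.0438), in a fit that called 19.9% of all genes higher and 23.2% lower. With the normexp background correction 5 of the 8 were higher, against 15.8% of all genes higher and 20.7% lower. That alternative started from the mean signal of each spot, not the processed one, and added an offset of 50. It therefore changed more than the background, and which part moved the calls was not tested. With only probes above background on every array kept, Tcp1 and Cct3 passed (adjusted p 0.0424 and 0.0457), against 14.3% of all genes. Without any scaling all 8 passed, against 46.9% of all genes higher and 2.07% lower. In that fit limma used the same variance for all genes (SE 0.32), so a gene's own spread between arrays played no part. With the percentile taken over detected probes 0 of the 8 passed, against 10.7% of genes higher and 20.8% lower. Leaving out Epo replicate 1 left 0 of 8 (6.25% of genes higher, 6.69% lower), and so did leaving out Epo replicate 2 (6.9% and 7.04%). Leaving out replicate 1 without Epo gave 1 of 8, Cct6a (11.5% and 11.1%), and leaving out replicate 2 without Epo gave 0 (8.88% and 9.18%).

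Before scaling the arrays with Epo were the brighter ones. The 75th percentile of the arrays was 347 and 454 intensity units with Epo and 224 and 250 without. Tcp1 had processed intensities of 18518 and 25952 with Epo, against 9378 and 9567 without Epo. Cct6a had 5295 and 4795 with Epo, against 2010 and 1216 without. Unscaled, the subunits were 1.89-fold (Cct2 and Cct5) to 3.22-fold (Cct6a) brighter with Epo, and the median gene was brighter by 0.68 on the log2 scale. The scaled differences below are what remains after the percentiles are made equal.

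Among the subunits whose yeast counterparts bind ATP weakly, Cct6a, the zeta subunit, showed the largest difference of the 8. Its log2 scaled signal was 12.19 and 11.66 on the arrays with Epo, and 11.43 and 10.54 on those without. The groups did not overlap, but the arrays within a group lay far apart, with replicate 2 lower in both. The mean was 11.93 ± 0.38 with Epo and 10.98 ± 0.63 without (SD, n = 2 each). The difference was 0.94 ± 0.36 (SE), a fold of 1.92 (limma, adjusted p 0.119). Within replicate number 1 the difference was 0.76 and within number 2 it was 1.12. Leaving out replicate 1 of the group without Epo raised it to 1.39 with an adjusted p of 0.0268, and leaving out replicate 2 of that group lowered it to 0.50 with an adjusted p of 0.253.

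Cct3, the gamma subunit, came next. It measured 12.81 and 13.05 with Epo, against 12.17 and 12.47 without Epo. Both arrays with Epo were the higher ones, and replicate 2 was the higher of each group. The difference was 0.61 ± 0.17 (SE), 1.52-fold, with a 95% interval of 0.16 to 1.05 and a limma adjusted p of 0.0589. It was nearly the same within both replicate numbers, at 0.64 in replicate number 1 and 0.57 in number 2.

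Tcp1, the alpha subunit after which the complex was named, measured 14.00 and 14.10 with Epo and 13.65 and 13.52 without. Here the arrays of each group lay close together. The difference of 0.46 ± 0.12 (SE), 1.38-fold, had a 95% interval of 0.14 to 0.79, and its limma adjusted p of 0.0532 was the lowest of the 8. Cct8, the theta subunit, measured 13.91 and 13.89 with Epo and 13.67 and 13.47 without, a difference of 0.32 ± 0.13 (SE) with an adjusted p of 0.125. The Epo arrays agreed within 0.021 for this gene, and the scatter lay in the group without Epo.

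Of the subunits whose yeast counterparts bind ATP tightly, Cct4, the delta subunit, differed most. It gave 14.22 and 14.02 with Epo, against 13.85 and 13.49 without. The groups did not overlap, and replicate 2 was the lower array of each. The difference was 0.45 ± 0.18 (SE), 1.37-fold, with a limma adjusted p of 0.125. Leaving out replicate 2 of the group without Epo lowered it to 0.27 (adjusted p 0.365).

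Cct7, the eta subunit, gave 14.78 and 14.96 with Epo, against 14.33 and 14.68 without Epo. Replicate 1 with Epo lay only just above replicate 2 without it, so the groups were barely apart. The difference was 0.36 ± 0.17 (SE) with an adjusted p of 0.181, at 0.44 and 0.27 within replicate numbers 1 and 2. Leaving out replicate 1 of the group without Epo lowered it to 0.18 (adjusted p 0.497). The Cct7-like Gm5380 gave 12.16 and 12.46 with Epo and 11.83 and 12.20 without, a difference of 0.29 ± 0.19 (SE) with an adjusted p of 0.307. For both probes replicate 2 was the higher array of each group.

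Cct2 and Cct5, the beta and epsilon subunits, differed least. Cct2 gave 16.07 and 16.15 with Epo, against 15.95 and 15.92 without. Cct5 gave 15.28 and 15.26 with Epo, against 15.07 and 15.12 without Epo. Both differences were 0.17, with SEs of 0.113 and 0.111, folds of 1.13 and limma adjusted p-values of 0.300 and 0.291. The arrays within each group were close for these genes, and the 95% intervals, -0.12 to 0.47 for Cct2 and -0.12 to 0.47 for Cct5, leave room for a change of either sign.

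**Figure D2:**
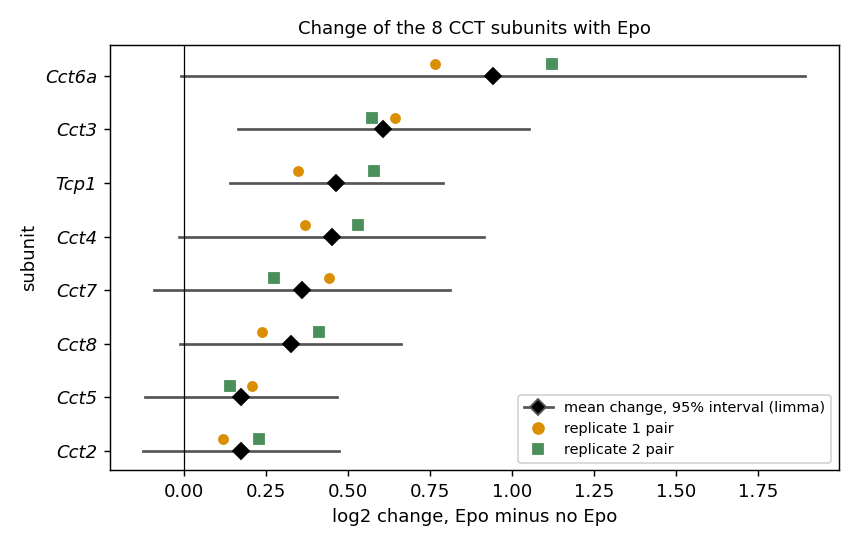
Difference in log2 scaled signal, Epo minus no Epo, for the 8 subunits in order of size. Diamonds are the mean differences with their 95% limma intervals, circles and squares the differences within replicate numbers 1 and 2. All 16 within-number differences lie above 0, and the intervals of Cct3 and Tcp1 lie wholly above 0.

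The order of the subunits was similar within replicate numbers 1 and 2. Cct6a had the largest difference of the 8 in both, Cct3 ranked 2 in replicate number 1 and 3 in number 2, and Cct2 and Cct5 took the last places in both. Tcp1 ranked 5 in number 1 and 2 in number 2, and Cct7 ranked 3 and 6. The rank correlation (Spearman) of the differences between replicate numbers was 0.74 over the 8 subunits, which share their arrays and are not independent. Relative to the mean of the 8 subunits on the same array, Cct6a lay 0.51 higher with Epo than without, and Cct2 and Cct5 each lay 0.26 lower. These ratios within an array do not depend on the scaling by a percentile. Whether the subunits differ from each other in their response was not tested.

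Probe signal moved with the size of the difference. Cct6a was the dimmest of the 8 probes and Cct2 and Cct5 the brightest, and the rank correlation of mean signal with difference was -0.86 over the 8. Brightness of a probe is not abundance of its transcript, so this sets no subunit's level above another's. Bright probes as a whole gave lower differences on these arrays. Of 333 genes with a mean signal above 17, limma called 86 lower and 0 higher, with a median difference of -0.40. No subunit was that bright, but the 320 genes within 0.5 of the signal of Cct2 had a median difference of -0.18, and the 431 around Cct5 one of -0.096. The 1802 genes around Cct6a had a median of 0.055 and the 1416 around Cct3 one of 0.049. Against genes of like signal, Cct2 lay above 90.6%, Cct5 above 82.6% and Cct6a above 92.3%. Against all genes tested, Cct2 lay above 67.6%, Cct5 above 67.7% and Cct6a above 93.1%. Under quantile normalization, which gives all arrays the same distribution, the difference of Cct2 was 0.34 and that of Cct5 0.25, and none of the 8 passed. With the percentile over detected probes both were 0.049 (limma adjusted p 0.769 for Cct2 and 0.762 for Cct5), and Cct7 and Cct8 were 0.23 and 0.20. With normexp Cct2 and Cct5 were 0.29 and 0.36 and did not pass. The part of probe signal in the spread among the subunits was not tested further.

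**Figure D3:**
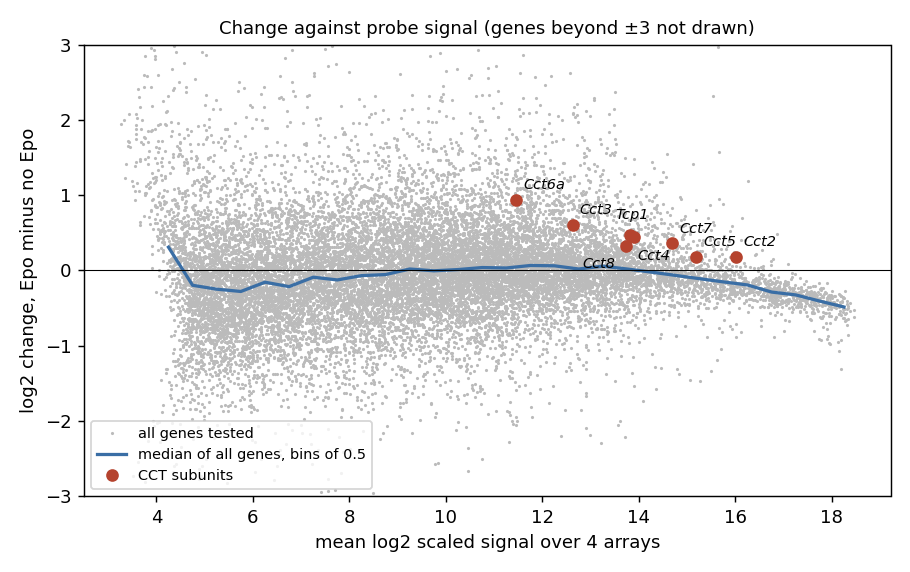
Difference in log2 scaled signal, Epo minus no Epo, against the mean signal over 4 arrays for all genes tested (grey; those beyond 3 in either direction are not drawn) with their median in bins of 0.5 (line). The 8 CCT subunits (filled circles) lie above the median line of genes of like signal, and the line falls below 0 at the bright end.

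Promoter windows from RefSeq (build GRCm38.p6, 250 bases before to 50 after each start) were at hand for 7 of the 8 genes, with 9 windows in all because Cct2 and Cct5 have more than 1 start. Cct4 had none. The windows were rich in CG dinucleotides, with 19 to 30 each and a median of 25, against a median of 7 over all 32851 windows. The 2 subunits with the largest differences, Cct6a and Cct3, and 1 window each of Cct2 and Cct5, which differed least, are printed so that they can be compared. Capitals mark every match of the motifs searched. For Cct2 and Cct5 the window printed is the one that holds paired units of the heat shock element. The other window of Cct2 held SP1 boxes and an ETS core, and the other window of Cct5 held no match.
Cct6a, chr5:129787106-129787405, plus strand: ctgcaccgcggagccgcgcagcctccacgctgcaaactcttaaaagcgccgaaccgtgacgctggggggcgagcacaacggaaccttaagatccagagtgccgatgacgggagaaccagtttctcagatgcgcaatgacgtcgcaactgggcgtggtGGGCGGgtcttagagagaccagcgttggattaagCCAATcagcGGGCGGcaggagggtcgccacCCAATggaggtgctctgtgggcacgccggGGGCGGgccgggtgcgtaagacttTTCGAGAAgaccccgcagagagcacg
Cct3, chr3:88296885-88297184, plus strand: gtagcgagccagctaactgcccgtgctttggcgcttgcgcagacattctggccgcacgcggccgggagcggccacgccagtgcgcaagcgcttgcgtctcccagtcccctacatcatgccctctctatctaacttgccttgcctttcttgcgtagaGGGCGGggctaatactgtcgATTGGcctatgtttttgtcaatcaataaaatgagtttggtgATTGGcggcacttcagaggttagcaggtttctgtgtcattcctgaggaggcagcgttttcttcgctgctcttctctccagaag
Cct2, chr10:117063326-117063625, minus strand: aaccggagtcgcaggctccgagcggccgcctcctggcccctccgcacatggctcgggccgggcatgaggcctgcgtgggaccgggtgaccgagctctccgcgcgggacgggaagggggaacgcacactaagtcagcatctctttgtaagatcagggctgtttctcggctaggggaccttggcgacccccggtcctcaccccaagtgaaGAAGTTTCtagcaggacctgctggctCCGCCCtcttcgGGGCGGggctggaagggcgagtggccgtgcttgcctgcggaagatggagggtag
Cct5, chr15:31601797-31602096, minus strand: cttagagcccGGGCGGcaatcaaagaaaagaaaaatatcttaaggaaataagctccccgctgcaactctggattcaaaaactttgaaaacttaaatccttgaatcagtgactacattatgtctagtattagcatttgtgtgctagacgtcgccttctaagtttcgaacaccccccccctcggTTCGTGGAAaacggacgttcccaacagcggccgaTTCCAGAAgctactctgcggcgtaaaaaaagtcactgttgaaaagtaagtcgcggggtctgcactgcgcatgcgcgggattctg
Each motif was searched on both strands, and no match overlapped that of another motif in these windows. The SP1 box GGGCGG was in 8 of 9 windows and in all 7 genes, against 35.7% of all windows. The box CCAAT was in 4 windows, those of Cct3, Cct6a, Cct7 and Tcp1, against 37.4% of all. The ETS core CCGGAAG was in 3 (Cct2, Cct8 and Tcp1), against 8.86%. The SP1 box and the ETS core each contain a CG, in which these windows are richer than windows at large. The part of CG content in their counts was not tested. Paired units of the heat shock element were found as GAANNTTC in 1 window, of Cct2, and as TTCNNGAA in 2, of Cct5 and Cct6a, against 7.86% and 8.52%. The STAT pair TTCNNNGAA, the kind of site bound by the factors below the Epo receptor, was in 1 window of Cct5, against 8.30% of all. The E-box CACGTG, the ZNF143 core ACTACAA, the box TATAAA, the cyclic AMP element TGACGTCA and the EGR site GCGTGGGCG had 0 matches, against 7.15%, 3.24%, 13.6%, 1.79% and 0.612% of all windows. A match of letters is no evidence of binding, a missing match says only that these letters are not in the window, and the subunits with and without a given motif were not compared.

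Genes for factors reported to act on CCT promoters were measured alongside. Myc, a driver of cell growth, rose with Epo, at 13.87 and 13.25 with Epo against 10.58 and 9.78 without, a difference of 3.37 ± 0.35 (SE; limma adjusted p 0.0077). Srf, the serum response factor, rose by 1.23 ± 0.17 (SE; adjusted p 0.0125) and Zfp143, the mouse gene for ZNF143, by 0.67 ± 0.16 (SE; adjusted p 0.0426). Hsf1, the main heat shock factor, differed by 0.47 ± 0.13 (SE) without passing (adjusted p 0.0641, and 0.0371 with the replicate block), and Hsf2 by -0.20 ± 0.12 (SE; adjusted p 0.278), or by 0.55 without scaling. So 3 of 5 tested rose and 0 fell, where 13.1% of all genes rose and 14.3% fell. The count was 2 with the percentile over detected probes, and 2 in 3 of the 4 fits that left out 1 array.

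Of the cofactors that work with CCT, prefoldin is a jellyfish-shaped complex that captures unfolded actin and tubulin and passes them on. Of its 6 subunits 1 rose and 0 fell, with a median of 0.23, and 2 rose with the replicate block. Over all genes 13.1% rose and 14.3% fell, or 19.9% and 23.2% with the block. Pfdn4 rose, at 9.96 and 9.61 with Epo against 8.74 and 8.63 without, a difference of 1.096 ± 0.16 (SE; limma adjusted p 0.0145). Pfdn2 differed by 0.73 ± 0.29 (SE; adjusted p 0.125), and this was the other one called with the block (adjusted p 0.0162). Vbp1, Pfdn6, Pfdn1 and Pfdn5 differed by 0.33, 0.13, 0.046 and -0.22 and did not pass. Without scaling Pfdn5 lay at 0.52, while with the percentile over detected probes Pfdn1 lay at -0.079. Under quantile normalization Pfdn1 and Pfdn6 lay at -0.052 and -0.011.

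Phosducin-like proteins bind CCT and help it to assemble or release clients. Of 3 tested, 0 were called. Txndc9, which is a negative regulator of folding by CCT, differed by 0.58 ± 0.17 (SE; limma adjusted p 0.0678), and Pdcl3 by 0.47 ± 0.15 (SE; adjusted p 0.0797). Both passed with the replicate block (adjusted p 0.0191 and 0.0309), which called 19.9% of all genes higher and 23.2% lower. A dimmer Txndc9 probe rose in the fit of every probe by itself, by 0.75 (adjusted p 0.0358), and 1 gene of the list was higher with the mean of the probes of a gene. Pdcl, which aids the assembly of G protein beta subunits, differed by -0.17 (adjusted p 0.373), or by 0.58 without scaling. Pdcl2 was not well above background. In the related prefoldin-like complex around Uri1 and the helicases Ruvbl1 and Ruvbl2, 0 of 8 were called, and 2 were higher and 1 lower with the block. Ruvbl1 had the smallest p, with a difference of 0.52 ± 0.14 (SE; adjusted p 0.0562), followed by Wdr92 at -0.48 ± 0.15 (SE; adjusted p 0.0752), or at 0.27 without scaling.

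The other chaperonin of the cell, the mitochondrial one, split. Hspd1, its barrel, rose, at 14.91 and 15.10 with Epo against 14.17 and 14.37 without, by 0.73 ± 0.14 (SE; limma adjusted p 0.0259). This call was lost when either Epo array was left out, and when replicate 1 of the other group was. Hspe1, its lid, differed by 0.053 ± 0.13 (SE; adjusted p 0.782), with its other 2 probes at 0.026 and -0.025. With the percentile over detected probes Hspe1 lay at -0.072. Among the paralogs of CCT subunits, Cct6b, the testis form of Cct6a, differed by -0.70 ± 0.20 (SE; adjusted p 0.0643), or by 0.045 without scaling. Its probe was dim, at 5.50 and 5.28 with Epo and 5.86 and 6.33 without. The CCT-like genes Bbs12, Bbs10 and Mkks encode a chaperonin-like complex that assembles the ciliary BBSome. Bbs12 rose by 1.26 ± 0.12 (SE; adjusted p 0.0070), while Bbs10 and Mkks differed by -0.57 and -0.073 and did not pass (adjusted p 0.0622 and 0.737). Without scaling Bbs10 and Mkks lay at 0.18 and 0.67. A dimmer Bbs10 probe passed in the fit of every probe by itself, at -0.82 (adjusted p 0.0227). Cct8l1 was not well above background.

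Transcripts of the main clients were read next. Over all genes 13.1% rose and 14.3% fell, or 19.9% and 23.2% with the replicate block. Of 14 tubulin genes tested 0 rose and 1 fell, with a median of -0.19, and 4 fell with the replicate block. Tubb5, a main beta tubulin of dividing cells, was the fall, at 14.59 and 14.57 with Epo against 15.26 and 15.39 without, a difference of -0.74 ± 0.12 (SE; limma adjusted p 0.0168). Without scaling it lay at 0.0041, and the call was lost in 3 of the 4 fits that left out 1 array. Of 13 actin and actin-related genes 0 rose and 0 fell, with 5 higher and 1 lower under the block. These counts rest on the brightest probe of each gene. For Actg1, a cytoplasmic actin and main client of CCT, that probe gave -0.30, and the 5 probes of the gene disagreed. With every probe fitted by itself, 3 of them rose, by 0.85, 0.87 and 0.63 (limma adjusted p 0.0129, 0.0150 and 0.0286), while the other two gave -0.30 and -0.42 without passing (adjusted p 0.170 and 0.0764). Among the actin genes Actr10 and Actr3b, of the dynactin and Arp2/3 families, had the smallest p, with differences of 0.40 and 0.47 (adjusted p 0.0601 and 0.0603). The 7 tubulin cofactors, which pair alpha with beta tubulin after CCT releases them, gave 0 calls and a median of -0.068. Tbcb and Arl2 had the smallest p among them (adjusted p 0.0721 and 0.171), at 0.38 and -0.28 (Arl2 at 0.47 without scaling), and 1 of the 7, Tbcb, was called higher with the block (adjusted p 0.0359).

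Of 19 WD40 proteins and other reported clients, 2 rose and 1 fell, against 13.1% and 14.3% of all genes. With the block 5 rose and 3 fell, against 19.9% and 23.2% of all genes. With 1 array left out, 0 to 2 rose and 0 to 1 fell. Ppp2r2a, a regulatory subunit of the phosphatase PP2A, rose by 0.87 ± 0.12 (SE; limma adjusted p 0.0117). Fbxw7, which recruits proteins for ubiquitination, rose by 0.70 ± 0.17 (SE; adjusted p 0.0432; 0.0538 with the replicate block), though its other probe gave 0.18. Ccne1, a cyclin of the entry into S phase, fell by 0.63 ± 0.12 (SE; adjusted p 0.0230), but lay at 0.12 without scaling.

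Chaperones that heat shock factors control were mixed. Of 14 tested 5 rose and 1 fell, with a median of 0.20, where 13.1% of all genes rose and 14.3% fell. The 5 became 1 without Epo replicate 1, 2 without Epo replicate 2, 1 when replicate 2 of the other group was left out, and 3 with the mean of the probes of a gene. The fall was lost whichever array was left out. Cacybp, a co-chaperone, rose by 1.08 ± 0.23 (SE; limma adjusted p 0.0325). Hsph1, a nucleotide exchange factor of the HSP70 system, rose by 1.05 ± 0.11 (SE; adjusted p 0.0079), and Chordc1, an HSP90 cofactor, by 0.71 ± 0.11 (SE; adjusted p 0.0165). The other rises were those of Hspa4 and Dnaja1, at 0.68 and 0.63, each with a further probe near 0. Hspa8, the constitutive HSP70, was the fall, at -0.49 ± 0.12 (SE; adjusted p 0.0471). It lay at 0.26 without scaling, and its other 2 probes gave 0.75 and 0.39. With every probe fitted by itself the falling Hspa8 probe did not pass (limma adjusted p 0.0524). In that fit the Hspa8 probe at 0.75 rose (adjusted p 0.0322). Hspa1a, the classical stress-induced HSP70, was not well above background.

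**Figure D4:**
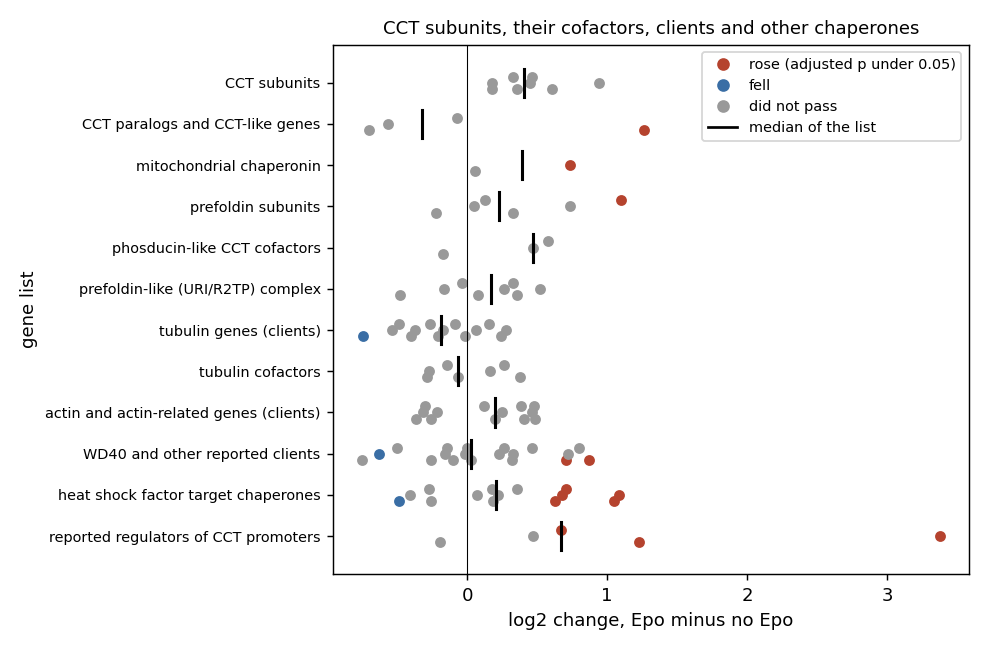
Difference in log2 scaled signal, Epo minus no Epo, of each gene tested, by list, with the median of each list as a bar. Red marks genes that rose, blue genes that fell and grey genes that did not pass the limma test. The CCT subunits run from 0.17 to 0.94, all grey, and the median of the tubulin genes lies at -0.19.

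The 5 genes nearest to the subunits in their profile were found by the root mean square difference from the mean centred profile of the 8 subunits, over the 4 arrays. Among 17547 other genes they were Gm9210, Zfp777, Cdca7, Eif3d and Il18bp, at 0.0070 to 0.014. Eif3d encodes a subunit of a translation initiation factor and Cdca7 a protein of dividing cells. Their differences ran from 0.42 to 0.46 on the log2 scale, which follows from choosing them by nearness to this mean profile. Eif3d was called higher (limma adjusted p 0.0488), at 16.01 and 15.98 with Epo and 15.60 and 15.47 without.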

How the data were processed

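Total RNA was labelled with Cy3 and hybridised to 4 Agilent mouse arrays, per the labels' protocols. The deposited intensity values are scanner output of Feature Extraction 10.1.1.1, corrected by the authors' software for background and spatial trends, with surrogates for dim spots, per the file headers. The arrays had not been brought to a common scale.

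The log2 processed intensity was scaled by the 75th percentile of the non-control spots of each array. Spots flagged as outliers were dropped, and 9 probes were lost by this. Probes well above background on both arrays of a group were kept, 23735 probes of 17555 genes, each gene by its brightest kept probe. Names were updated through RefSeq (GRCm38.p6, also the source of the promoters): of 55681 probes 26407 by accession, 3864 by symbol, 735 by synonym, and 24675 kept the file's name. limma 3.58.1 (R 4.3.3, two-sided, Benjamini-Hochberg over all genes) was used without a block, with 13 alternatives (background correction, scaling, filter, probe choice, replicate block, each array left out). The median SE was 0.145 and the smallest difference called 0.43. For the block, samples of 1 replicate number were read as 1 of the experiments of the design text, which no label states outright. They deviated together with a correlation of 0.386 across genes. The text names every subunit and every gene of the prefoldin, phosducin-like, chaperonin and paralog lists. Of the 6 listed regulators it names the 5 found by name on the array, and Zfp76 was not found. Of other lists it names up to 3 rises and 3 falls that passed, or else the 2 smallest p. The extra genes named in the heat shock list, Gm5380 and the second probes were chosen after their values were seen. One marker gene is not reported here. Members and lists were chosen with earlier results of these data known.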

Additional observations from a re-analysis of the deposited data

How the results depend on the processing

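Each subunit has 1 probe, so the alternatives of filter, probe choice and replicate block could not change its difference. Leaving out 1 array could not turn its sign, since the groups did not overlap. With normexp, without scaling and with the other scalings, which could, each of the 8 subunits stayed above 0. Under the 13 alternatives 0 were called lower by limma. With normexp the differences that passed were 0.55 (Tcp1), 0.72 (Cct3), 0.56 (Cct4), 1.01 (Cct6a) and 0.45 (Cct8), 5 subunits. Without scaling limma used the same variance for all genes, and all 8 passed. Their differences were 1.21 (Tcp1), 0.92 (Cct2), 1.35 (Cct3), 1.20 (Cct4), 0.92 (Cct5), 1.69 (Cct6a), 1.11 (Cct7) and 1.07 (Cct8). The median over all genes was 0.68. With probes above background on every array 2 passed, Tcp1 at 0.46 and Cct3 at 0.61. With the replicate block 4 passed, Tcp1 at 0.46, Cct3 at 0.61, Cct4 at 0.45 and Cct6a at 0.94, and all genes gave 3497 higher and 4068 lower, against 2302 and 2502 without it. With 1 array left out, 0 to 1 subunits passed, Cct6a ran from 0.50 to 1.39, and all genes gave 1098 to 2017 higher and 1175 to 1946 lower. A group left with 1 array was assumed to vary like the other. Without scaling 8231 genes were higher and 364 lower. Without the filter on dim probes limma called 0 genes higher and 0 lower of 36310, with 7148 at an unadjusted p below 0.05. The cause of these shifts was not tested. The percentile over detected probes gave 1878 genes higher and 3651 lower. Over the alternatives the WD40 and other clients gave 0 to 12 genes higher, the widest range of the lists. With 2 arrays a group, differences near 0.17 could not be told from 0. Nor did the larger ones pass in the main limma fit, up to 0.94 for Cct6a (adjusted p 0.119).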
